A study of Mus musculus with 48 samples.

Results

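The genes that drive the mouse cell cycle, 10 cyclins and cyclin-dependent kinases, were followed through every RNA-seq and Ribo-seq library of the series. They are the cyclin-dependent kinases *Cdk2*, *Cdk1* and *Cdk4* and the cyclins *Ccne1*, *Ccne2*, *Ccna2*, *Ccnb1*, *Ccnd1*, *Ccnd2* and *Ccnd3*. They were found as the rows whose Ensembl identifier carries one of these symbols in GENCODE, which gave 10 of the 55335 genes listed. All libraries came from mouse embryonic stem cells (mESCs), 28 of RNA-seq and 4 of Ribo-seq, which reads the RNA fragments covered by ribosomes, and each group had 2. The question was how losing the splicing-associated protein NRDE2, its partner CCDC174 or the RNA helicase MTREX changed gene expression.

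All lines came from male mESCs of mixed 129xC57BL/6 background that carry Cre-ERT2, a tamoxifen-dependent recombinase, in the *Rosa26* locus, alone or with the biotin ligase BirA. They were genome-edited lines grown without feeder cells in serum, LIF and 2i. *Nrde2*-KO and *Mtrex*-KO cells were conditional lines given 4-hydroxytamoxifen (4OHT) at 100 nM for 4 and 3 d. *Ccdc174-dTAG* cells carry CCDC174 fused to the FKBP12F36V degron and received dTAG-13 at 500 nM for 24 h. Their WT controls had no compound, so that exposure to the compound and loss of the gene product cannot be told apart. In RNA-seq these controls were the same kinds of line. The Ribo-seq WT label names no line, and no label ties the Ribo-seq to either RNA-seq experiment on *Nrde2*. *Nrde2*Δ*200* cells express an amino-terminally truncated NRDE2 and *Nrde2-D174R* cells a point mutant. Both share 1 pair of WT libraries with *Nrde2*-KO. A second *Nrde2* experiment and the *Ccdc174* experiment were run without and with cycloheximide (CHX) at 0.1 mg/ml for 4 h.

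A cyclin-dependent kinase is active only when bound to a cyclin, and the pairs follow each other through the cycle. D cyclins with CDK4 start the inactivation of the retinoblastoma protein, E cyclins with CDK2 open S phase, cyclin A2 acts through S phase and G2, and cyclin B1 with CDK1 drives entry into mitosis. mESCs have a short G1 phase and keep cyclin E and CDK2 activity high through most of the cycle. CHX stops translating ribosomes, which also protects messages that are otherwise destroyed by nonsense-mediated decay.

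The series is about 5′ splice sites, so the start of the first intron of each gene is shown, with the 3 exon and 6 intron letters of the site in capitals. The sequences are those of the mm10 assembly (GRCm38), for the coding transcript with the longest coding sequence.

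Cdk2, chr10:128704697-128704720, minus strand: gctcgaCACGTGAGTggcctccgg
Cdk1, chr10:69352821-69352844, minus strand: gacagaGAGGTATGGcgtgagtcg
Cdk4, chr10:127063751-127063774, plus strand: gagcgtAAGGTGAGTgcagtctca
Ccne1, chr7:38107307-38107330, minus strand: cagcttCGGGTACGGgctgcctgg
Ccne2, chr4:11191536-11191559, plus strand: cgcgcgCAGGTGAAGcgccgagag
Ccna2, chr3:36571623-36571646, minus strand: actcgaCGGGTAATAgggcgcggg
Ccnb1, chr13:100786367-100786390, minus strand: gtcactAGGGTGAGTcgggccagg
Ccnd1, chr7:144939481-144939504, minus strand: atgctgGAGGTAAGAgactttaca
Ccnd2, chr6:127150567-127150590, minus strand: atgctaGAGGTAGGTgtgcgggcg
Ccnd3, chr17:47505258-47505281, plus strand: ctaagcTCGGTGAGTtcatctgcc

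Against the consensus CAGGTAAGT, the first site of *Cdk2* matched 7 of 9 letters and that of the other members 6 or 7. With positions counted from 1 at the first exon letter, the *Cdk2* site differs from the consensus by G3C and A6G. Over 182161 annotated introns, 1 transcript per gene, 87.8% had 7 matches or fewer. The count weighs each letter alike and is not a measure of the strength of a site. Its last exon letter is C, where the first sites of the other 9 members have G. *Cdk2* lacked this G at 3 of its 7 introns (introns 1, 2 and 6). The other members lacked it at 6 of 65 introns. Of the same 182161 introns 19.1% lacked it. The *Cdk2* site with the fewest matches was that of intron 5, with 5 of 9 letters.

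The first exon of *Cdk2* holds 116 coding bases and leaves 2 bases of an open codon. A reading frame that runs on into intron 1, which is 708 bases long, meets TGA at the second intron base, inside the splice site itself. The end of exon 1 and the first 260 intron bases are shown because every site downstream would include this stop. Capitals mark the annotated site and the 4 windows around a GT that match the consensus best.

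Cdk2 intron 1, chr10:128704452-128704726, minus strand: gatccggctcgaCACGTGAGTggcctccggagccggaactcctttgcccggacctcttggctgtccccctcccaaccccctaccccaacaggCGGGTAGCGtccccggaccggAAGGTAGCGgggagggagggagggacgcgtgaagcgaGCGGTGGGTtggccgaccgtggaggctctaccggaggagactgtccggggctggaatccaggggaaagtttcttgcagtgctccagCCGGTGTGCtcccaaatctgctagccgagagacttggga

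In this stretch 14 windows around a GT lie downstream of the annotated site. The best 4 match 5 of 9 letters, fewer than the annotated site. These are counts of letters, and whether a window is used is not measured by the gene-level values. The paper describes the annotated site as weak and bound by NRDE2 and CCDC174. From RNA-seq junctions and sequenced RT-PCR products, it reports use of cryptic sites in this intron in cells lacking NRDE2 or CCDC174. It describes a weaker pattern with truncated NRDE2 and few such sites in *Mtrex*-KO. It also reports a reduced *Cdk2* Ribo-seq signal in *Nrde2*-KO. In its luciferase reporters, a strengthened site made *Cdk2* insensitive to loss of NRDE2.

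The RNA-seq libraries held between 28683644 and 36272309 reads in genes and the Ribo-seq libraries between 3475051 and 5035940. Values are CPM, the reads of a gene scaled to the total of its library, divided by a scaling factor for each library, and are called normalized CPM. A gene fell, rose or passed where its adjusted p was below 0.01. *Nrde2* fell to 18.2 and 19.4 normalized CPM in *Nrde2*-KO from 40.0 and 38.6 in WT, and *Mtrex* fell to 43.4 and 39.5 from 114 and 107 in *Mtrex*-KO. With CHX, however, *Nrde2* read 283 and 271 in the libraries labelled *Nrde2*-KO and 271 and 250 in WT, so the whole-gene count does not check that label. dTAG-13 acts on protein, and the *Ccdc174* RNA checks nothing there. The 8 ES cell markers, among them *Pou5f1* and *Nanog*, were at 1 CPM or more in every library. Of the 6 fibroblast feeder markers 2 stayed below 1 normalized CPM in all 32 libraries, and the summed level of the 6 was at most 34.9.

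In WT cells without CHX the members spanned a wide range of abundance. Levels are compared between genes as normalized CPM per kb of exon, over 8 WT libraries of the 4 experiments. The exon length joined the exons of all annotated transcripts, 6219 bases for *Cdk2*, so stretches absent from some transcripts were counted. A gene with a long joined length reads low by this measure, and the order of genes holds for this length only. *Cdk4* was highest, with a median of 143 and a range of 112 to 172, above every other member in each library. *Ccna2* followed at a median of 75.3, *Ccne1* at 57.1 and *Cdk1* at 53.9, and the ranges of neighbours in this order overlapped. The range of *Cdk1* lay above that of *Ccnb1*, which had a median of 34.2, followed by *Ccnd1* at 24.1, *Cdk2* at 19.6, *Ccnd3* at 19.3 and *Ccne2* at 8.89, each overlapping its neighbour. The *Cdk2* range of 16.7 to 21.7 overlapped those of *Ccnd1* and *Ccnd3*. *Ccnd2* was nearly silent and below all others, between 0.0283 and 0.211, which rested on 10 to 69 reads per library. In WT Ribo-seq *Ccne1* and *Cdk4* were highest per kb, *Cdk2* read 10.1 and 10.9 per kb, and *Ccnd2* rested on 8 and 12 reads. The same exon length, with its untranslated parts, was used there. Without division by length *Cdk4* read 153 and 156 normalized CPM, *Ccnd3* 145 and 153, *Ccnd1* 133 and 128 and *Ccne1* 119 and 131.

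*Cdk2*, the partner of the E and A cyclins, fell in *Nrde2*-KO, *Ccdc174-dTAG*, *Mtrex*-KO and *Nrde2*Δ*200*. The paper reports lower NRDE2 protein after *Mtrex* knockout, so *Mtrex*-KO is not a loss of MTREX alone. In the first *Nrde2* experiment the WT libraries read 126 and 135 normalized CPM and the *Nrde2*-KO libraries 82.6 and 87.2. The *Nrde2*Δ*200* libraries read 89.6 and 84.3 and the *Nrde2-D174R* libraries 122 and 120. Both *Nrde2*-KO and both *Nrde2*Δ*200* libraries lay below both WT libraries by a wide gap, and the D174R pair lay just under them. In the second experiment the WT libraries read 109 and 121 and *Nrde2*-KO 67.6 and 78.8. The *Ccdc174* WT libraries read 104 and 110 and *Ccdc174-dTAG* 62.0 and 64.3. The *Mtrex* WT libraries read 134 and 123 and *Mtrex*-KO 66.2 and 81.5. No pair overlapped its control.

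The log2 fold change of *Cdk2* was −0.62 ± 0.10 (SE) in *Nrde2*-KO (limma adjusted p = 0.000214) and −0.65 ± 0.10 in the second experiment (adjusted p = 0.000119). It was −0.58 ± 0.10 in *Nrde2*Δ*200* (adjusted p = 0.000900), −0.76 ± 0.10 in *Ccdc174-dTAG* (adjusted p = 6.4e-05) and −0.81 ± 0.10 in *Mtrex*-KO (adjusted p = 1.8e-06). These correspond to between 57.1 and 66.8% of the control level. In *Nrde2-D174R* the value was −0.11 ± 0.10 (adjusted p = 0.623), with a 95% interval of −0.32 to 0.11. *Cdk2* was therefore the 1 member past adjusted p of 0.01 in each of these comparisons except D174R. The call in *Nrde2*Δ*200* was lost without WT replicate 2 (−0.53, adjusted p = 0.0190) or *Nrde2*Δ*200* replicate 2 (−0.54, adjusted p = 0.0216), and with CPM as deposited (−0.54, adjusted p = 0.0138). These are bulk samples, so fewer cells of a kind and less RNA per cell cannot be told apart. The paper reports that growth stopped after induced *Nrde2* knockout and was slower in cells with the truncated allele. Proliferation may therefore differ between the groups compared, and its part in the changes of these genes was not tested.

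**Figure D1:**
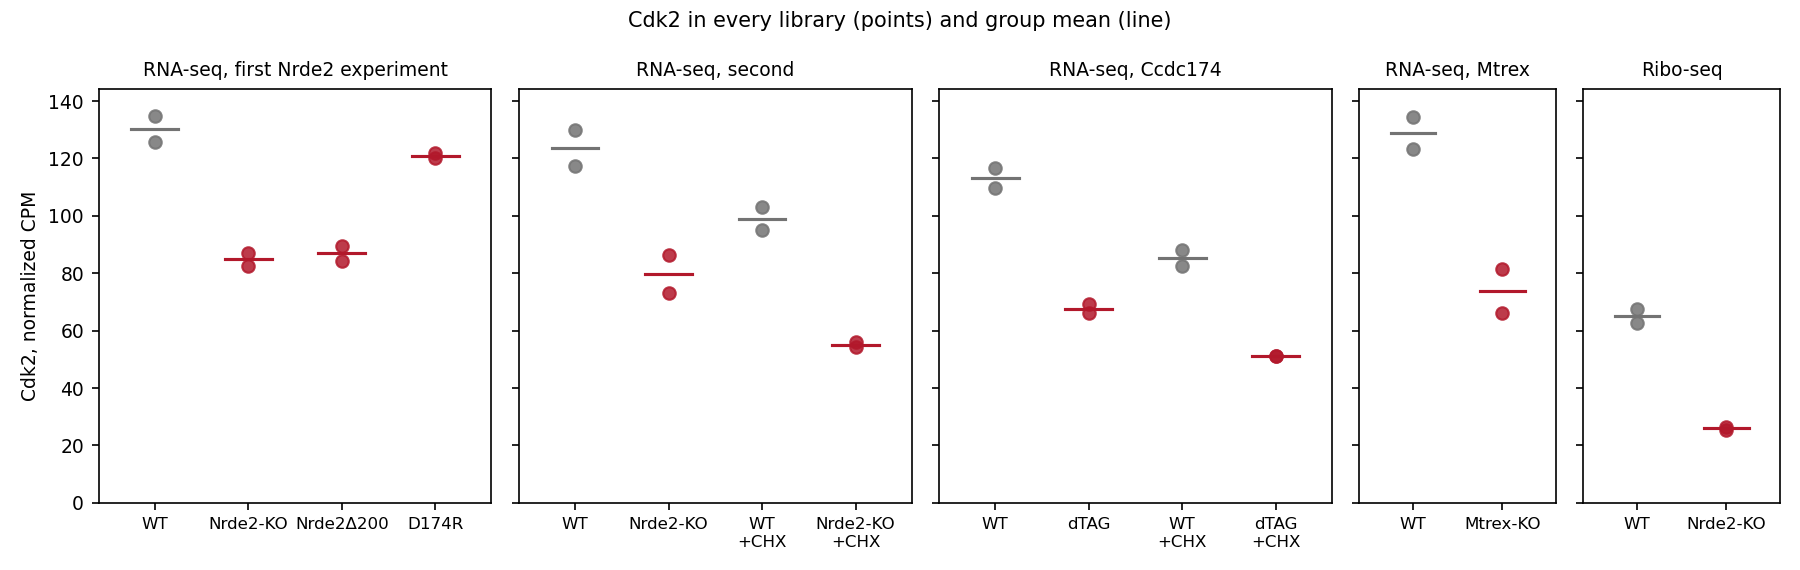
*Cdk2* in normalized CPM (y axis, from 0) in every library (points) and as the group mean (lines), with WT in grey and other groups in red; the panels are separate experiments or assays, and the panels with CHX are scaled over the 16 libraries of both CHX experiments. No *Nrde2*-KO, *Nrde2*Δ*200*, dTAG or *Mtrex*-KO library reaches its WT pair, while *Nrde2-D174R* lies just under it.

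The kinase gene *Cdk4* was also lower in *Nrde2*-KO. *Cdk4*, the partner of the D cyclins, read 224 and 257 normalized CPM in *Nrde2*-KO and 397 and 439 in WT. In the second experiment it read 298 and 286 against 497 and 558. Its log2 fold changes were −0.80 ± 0.11 (adjusted p = 2.4e-05) and −0.85 ± 0.11 (adjusted p = 1.1e-05). *Ccnd3*, a D cyclin, fell by 0.58 and 0.42 on the log2 scale and *Ccne1*, an E cyclin, by 0.52 and 0.55. These 4 genes fell in both experiments. *Cdk1* (−0.46) and *Ccne2* (−0.64) passed in the first experiment, and their values in the second were −0.17 and −0.23. The D cyclin *Ccnd1* passed in the second experiment (−1.01 ± 0.17, adjusted p = 0.000247), with 71.2 and 77.4 against 122 and 184. In the first it was −0.48 (adjusted p = 0.0407). The S and G2 cyclin *Ccna2* (−0.29 and −0.09) and the mitotic cyclin *Ccnb1* (−0.08 and 0.21) passed in neither, nor did *Ccnd2*. No member rose.

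In counts, 6 of 10 members fell in the first *Nrde2*-KO experiment and 5 of 10 in the second, where 11.1 and 11.4% of all genes tested fell and 7.21 and 7.1% rose. The median of the members was −0.50 and −0.37, beside medians of −0.01 and −0.00077 over all genes tested. With 1 library left out, 4 members fell in the first experiment without WT replicate 1 or KO replicate 1 and 3 without WT replicate 2 or KO replicate 2. *Cdk2*, *Cdk4* and *Ccnd3* were past the test in each case. In the second experiment 3 fell without WT replicate 2 or KO replicate 2 and 4 or 5 without either other library, with *Cdk2*, *Cdk4* and *Ccnd1* in each. On CPM as deposited 3 fell in each experiment, and the share of calls that were higher went from 39.4 to 55.6% in the first. A test of the difference between the experiments, added after the data were seen, passed for 0 members by limma (1 at unadjusted p below 0.05, 0 by edgeR, 0 by DESeq2), where 0% of all genes passed. The summed level of the 8 ES cell markers was also lower in *Nrde2*-KO, at 4092 to 4411 against 5411 to 5590 normalized CPM in the first experiment and 4703 to 4834 against 5366 to 5526 in the second. That of 3 trophectoderm markers was 5.70 to 7.81 against 2.36 to 2.52 and 6.04 to 6.54 against 2.07 to 2.65, and that of 5 primitive endoderm markers 16.9 to 18.9 against 10.96 to 11.4 and 11.02 to 14.8 against 7.77 to 9.22. Markers of other lineages were lower, 3 of neuroectoderm summing to 12.6 to 15.03 against 17.9 and to 10.2 to 11.2 against 17.5 to 19.0, and 4 of mesoderm to 7.43 to 8.34 against 9.38 to 9.90 in the first experiment, with overlap in the second. Of these, 1 trophectoderm and 1 primitive endoderm marker stayed below 1 in all 32 libraries. The feeder markers summed to 8.22 to 12.3 in *Nrde2*-KO and 5.12 to 8.19 in WT of the second experiment. The part of all these markers in the results was not tested, nor was that of the growth arrest.

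**Figure D2:**
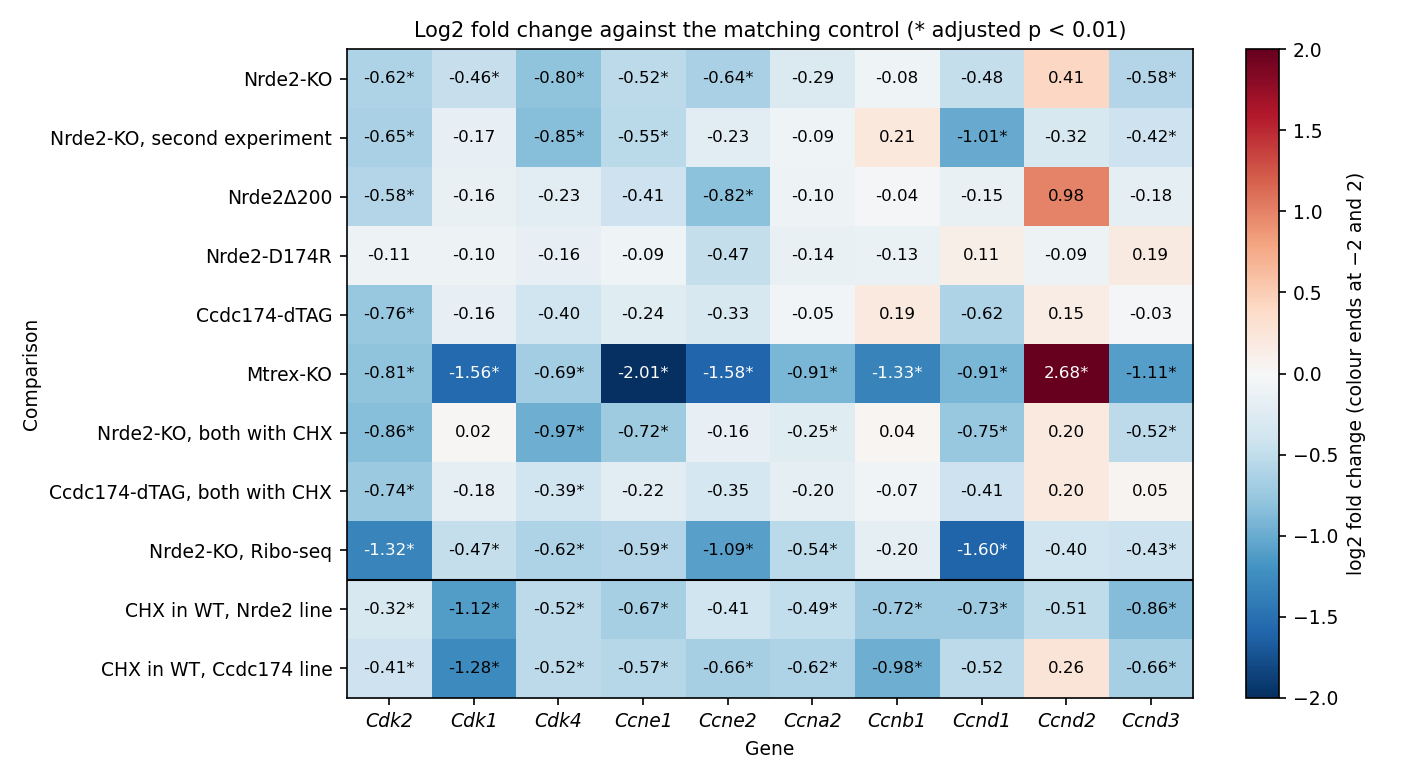
Log2 fold change (colour and printed number) of the 10 genes (columns) against the matching control (rows), with an asterisk where the limma adjusted p is below 0.01. *Cdk2* carries an asterisk in each row except *Nrde2-D174R*; above the line are genotypes, below it CHX against no CHX in WT cells.

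Few members passed in the line with the truncated allele. In *Nrde2*Δ*200* 2 of 10 members fell, *Cdk2* and the E cyclin *Ccne2*, where 4.19% of all genes fell and 3.18% rose. *Ccne2* read 17.8 and 14.3 normalized CPM and 26.7 and 30.1 in WT, without overlap (log2 fold change −0.82 ± 0.16, adjusted p = 0.0025). *Ccne1* missed the threshold at −0.41 (adjusted p = 0.010008), and it passed in 5 of the alternative settings. *Cdk4* read 362 and 351, a difference of −0.23 (adjusted p = 0.149). The median of the members was −0.17, that of all genes −0.01. The count was 1 without WT replicate 1 and 0 without WT replicate 2 or *Nrde2*Δ*200* replicate 2, and 0 with CPM as deposited, where 57.3% of calls in all genes were higher instead of 43.2%. The summed level of 6 fibroblast feeder markers was 26.3 to 34.3 in *Nrde2*Δ*200* and 12.4 to 20.04 in WT, that of the trophectoderm markers 4.37 to 4.97 and 2.36 to 2.52, and that of the primitive endoderm markers 13.6 to 16.1 and 10.96 to 11.4. The mesoderm markers were lower at 7.60 to 7.86 against 9.38 to 9.90, as were the ES cell markers at 4985 to 5272 against 5411 to 5590, and the part of these was not tested. The part of slower growth was not tested either.

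In *Nrde2-D174R* 0 of 10 members passed by limma, 0 by edgeR and 0 by DESeq2, and 1 had an unadjusted p below 0.05. Of all genes 0.134% fell and 0.275% rose. The values ran from −0.47 (*Ccne2*, 20.3 and 20.3 normalized CPM) to 0.19 (*Ccnd3*, 176 and 190), with a median of −0.10. The trophectoderm markers summed to 5.17 to 6.28 here against 2.36 to 2.52 in WT, and the neuroectoderm markers to 20.9 to 25.4 against 17.9. The mesoderm markers were lower at 8.42 to 8.60 against 9.38 to 9.90, and the part of these was not tested.

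Differences between the alleles were tested directly. *Nrde2*-KO cells had received 4OHT, and *Nrde2*Δ*200* and *Nrde2-D174R* cells had not. Allele, edited line and compound therefore cannot be told apart in these differences. *Cdk2* differed between *Nrde2*-KO and *Nrde2-D174R* by −0.51 ± 0.10 (adjusted p = 0.0014). It differed between *Nrde2*-KO and *Nrde2*Δ*200* by −0.03 ± 0.10 (adjusted p = 0.865), with a 95% interval of −0.25 to 0.18. *Cdk4* was lower in *Nrde2*-KO than in *Nrde2*Δ*200* by 0.57 on the log2 scale (adjusted p = 0.0017) and *Ccnd3* by 0.40 (adjusted p = 0.0070), which made 2 of 10 members where 5.79% of all genes differed. Against D174R 4 of 10 differed, *Cdk2*, *Cdk4* (−0.64), *Ccnd3* (−0.77) and *Ccne1* (−0.43), where 14.1% of all genes did. Several of these calls were lost with 1 library left out. The *Cdk2* difference from D174R was lost without *Nrde2*-KO replicate 1 (−0.47, adjusted p = 0.0211), D174R replicate 1 (−0.50, adjusted p = 0.0180) or D174R replicate 2 (−0.52, adjusted p = 0.0119), and with CPM as deposited (−0.37, adjusted p = 0.0553), where the median of all genes moved to 0.13. Without 1 library, 2 or 3 members differed from D174R, 3 being reached without KO replicate 2, and *Cdk4* and *Ccnd3* were among them each time. From *Nrde2*Δ*200* 1 differed without KO replicate 2 and 0 without any of the other 3 libraries, where *Cdk4* had adjusted p of 0.0417 (KO replicate 1), 0.0212 and 0.0164 (*Nrde2*Δ*200* replicates 1 and 2), or with CPM as deposited. Calls that were higher made 32.5% with the truncation and 35.0% with D174R, against 43.9 and 62.8% with CPM as deposited.

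*Cdk2* and no other member passed the threshold in *Ccdc174-dTAG*. In *Ccdc174-dTAG* 1 of 10 members fell, where 4.53% of all genes fell and 1.04% rose. The median of the other 9 members was −0.16, so *Cdk2* lay 0.59 below it on the log2 scale and below each of them. *Ccnd1* came next with 71.5 and 55.5 normalized CPM against 105 and 88.8 (−0.62 ± 0.17, adjusted p = 0.0244), and its libraries did not overlap. *Cdk4* read 312 and 268 against 400 and 364 (−0.40 ± 0.11, adjusted p = 0.0185), again without overlap. *Ccna2*, *Ccnb1*, *Ccnd2* and *Ccnd3* lay between −0.05 and 0.19. DESeq2 called 3 members, adding *Cdk4* and *Ccnd1*. The primitive endoderm markers summed to 6.33 to 6.46 in *Ccdc174-dTAG* and 4.24 to 4.39 in WT and the mesoderm markers to 7.93 to 8.98 and 10.4 to 14.7. The neuroectoderm markers summed to 7.85 to 10.9 against 7.76 to 7.77 and the feeder markers to 6.68 to 7.80 against 6.21 to 6.42. The part of all these markers was not tested. The *Ccdc174-dTAG* effect was not shown to differ from that of *Nrde2*-KO for *Cdk2* (−0.14 ± 0.14, adjusted p = 0.617, 95% interval −0.44 to 0.16). The difference passed for 0 of 10 members by limma (2 at unadjusted p below 0.05, 0 by edgeR, 1 by DESeq2), where 1.62% of all genes differed. Of those calls 49.8% were higher, and 32.5% with CPM as deposited.

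All 10 members passed in *Mtrex*-KO, 9 down and 1 up, where 28.2% of all genes fell and 27.7% rose. The largest decrease was that of *Ccne1*, which read 30.2 and 35.3 normalized CPM in *Mtrex*-KO and 131 and 134 in WT (−2.01 ± 0.10, adjusted p = 3.1e-11). *Ccne2* read 6.94 and 9.60 against 24.1 and 25.7 (−1.58 ± 0.16) and *Cdk1* 73.5 and 95.6 against 228 and 268 (−1.56 ± 0.11). *Ccnb1* (−1.33), *Ccnd3* (−1.11), *Ccna2* (−0.91) and *Ccnd1* (−0.91) followed. *Cdk2* at −0.81 and *Cdk4* at −0.69 were the members that fell least. In this comparison *Cdk2* thus lay 0.30 above the median of the other 9 members, which was −1.11.

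The exception was *Ccnd2*, a D cyclin that was almost absent from WT cells. It read 19.4 and 5.45 normalized CPM in *Mtrex*-KO (595 and 165 reads) and 1.60 and 1.22 in WT (61 and 45 reads). Its log2 fold change was 2.68 ± 0.44 (adjusted p = 3.5e-05). The *Mtrex*-KO libraries lay far apart but both above WT, and the 95% interval of the change ran from 1.76 to 3.60. These libraries also stood apart in other measures. Reads in genes made 72.1% (replicate 1) and 82.7% (replicate 2) of the total behind their CPM, against 83.6 to 92.1% in the other RNA-seq libraries. The chi-square between the replicates was 87.0 per gene, and at most 37.9 in any other group. The same 10 calls were made without any 1 library. The median of the members was −1.01, beside −0.02 over all genes. With CPM as deposited the median of all genes moved to −0.38, *Cdk2* to −1.18, which is −0.80 relative to that median, and 27.5% of calls were higher instead of 49.6%. Every member kept its direction. The summed level of the trophectoderm markers was 11.4 to 15.7 in *Mtrex*-KO and 2.78 to 3.25 in WT, that of the ES cell markers 4304 to 5209 and 5824 to 5956, that of the feeder markers 4.52 to 4.69 and 15.2 to 15.4, that of the primitive endoderm markers 13.7 to 14.9 and 10.1 to 10.6, and their part in these results was not tested.

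The *Mtrex*-KO and *Nrde2*-KO effects differed for 7 of 10 members, where 31.3% of all genes did. *Ccne1* was lower by 1.49, *Ccnb1* by 1.25, *Cdk1* by 1.10, *Ccne2* by 0.94, *Ccna2* by 0.62 and *Ccnd3* by 0.52 on the log2 scale, and *Ccnd2* was higher by 2.27. The calls of *Ccne2*, *Ccnd2* and *Ccnd3* were each lost without some single libraries, and *Ccnd2* was at 1.39 without *Mtrex*-KO replicate 1. Without a filter the calls of *Ccne2* and *Ccnd2* were lost, and with only the compared groups those of *Ccna2*, *Ccnd2* and *Ccnd3*. For *Cdk2* the difference was −0.19 ± 0.14 (adjusted p = 0.295), with a 95% interval of −0.49 to 0.11. With CPM as deposited it was −0.64 (adjusted p = 0.0095), which is −0.22 relative to a median of all genes that moved to −0.42, and 22.7% of calls in all genes were higher instead of 55.1%. The count ranged from 4 to 7 with 1 library left out. It was 4 without *Nrde2* WT replicate 1, without *Nrde2*-KO replicate 2 or without *Mtrex*-KO replicate 1.

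Ribosome footprints of *Cdk2* fell further than its RNA. In Ribo-seq *Cdk2* read 62.8 and 67.7 normalized CPM in WT (483 and 509 reads) and 26.3 and 25.5 in *Nrde2*-KO (147 and 197 reads). The log2 fold change was −1.32 ± 0.10 (adjusted p = 4.6e-09), or 40.0% of WT, against 65.2% of WT in RNA-seq. *Ccnd1* fell even more, from 133 and 128 to 44.2 and 41.3 (−1.60 ± 0.08, adjusted p = 5.1e-11). In one fit over the 4 Ribo-seq and 4 RNA-seq libraries of the first experiment, the Ribo-seq effect was lower than the RNA-seq effect by 0.69 ± 0.11 for *Cdk2* (adjusted p = 0.0015) and by 1.11 ± 0.12 for *Ccnd1* (adjusted p = 0.000155). These were 2 of 10 members, where 7.17% of all genes differed. Both passed without any 1 library. With the RNA-seq of the second experiment instead, *Cdk2* passed (−0.65, adjusted p = 0.0087) and *Ccnd1* did not (−0.57, adjusted p = 0.0612). The *Cdk2* value on CPM as deposited was −0.63 (adjusted p = 0.0198), and 89.7% of calls were higher instead of 69.1%.

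In Ribo-seq 8 of 10 members fell, where 14.2% of all genes fell and 11% rose. The E cyclins lay at −1.09 (*Ccne2*, 3.40 and 3.76 normalized CPM against 8.32 and 7.44, with 19 to 64 reads per library) and −0.59 (*Ccne1*, 82.6 and 83.2 against 119 and 131). *Cdk4* read 100.3 and 100.95 against 153 and 156 (−0.62), and *Ccna2* (−0.54), *Cdk1* (−0.47) and *Ccnd3* (−0.43) also passed. *Ccnb1* was at −0.20 (adjusted p = 0.241), and *Ccnd2* rested on 6 to 12 reads per library. The median was −0.57, beside 0.0029 for all genes. The same number was called without any 1 library. With CPM as deposited the median of all genes moved to 0.15 and 4 members fell (*Cdk2*, *Cdk4*, *Ccne2* and *Ccnd1*), with 69.1% of calls higher instead of 43.7%. For the 8 members other than *Cdk2* and *Ccnd1* the difference between the assays did not pass, with values from −0.81 (*Ccnd2*, 95% interval −1.83 to 0.21) to 0.19 (*Cdk4*, 95% interval −0.05 to 0.44). In the Ribo-seq libraries the feeder markers summed to 32.9 to 34.9 in *Nrde2*-KO and 13.6 to 14.9 in WT, the primitive endoderm markers to 9.20 to 10.2 and 2.92 to 3.12, and the trophectoderm markers to 6.45 to 6.998 and 3.06 to 3.25. The ES cell markers were lower, at 2319 to 2388 against 2817 to 2870, as were the neuroectoderm markers, and the part of these was not tested.

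**Figure D3:**
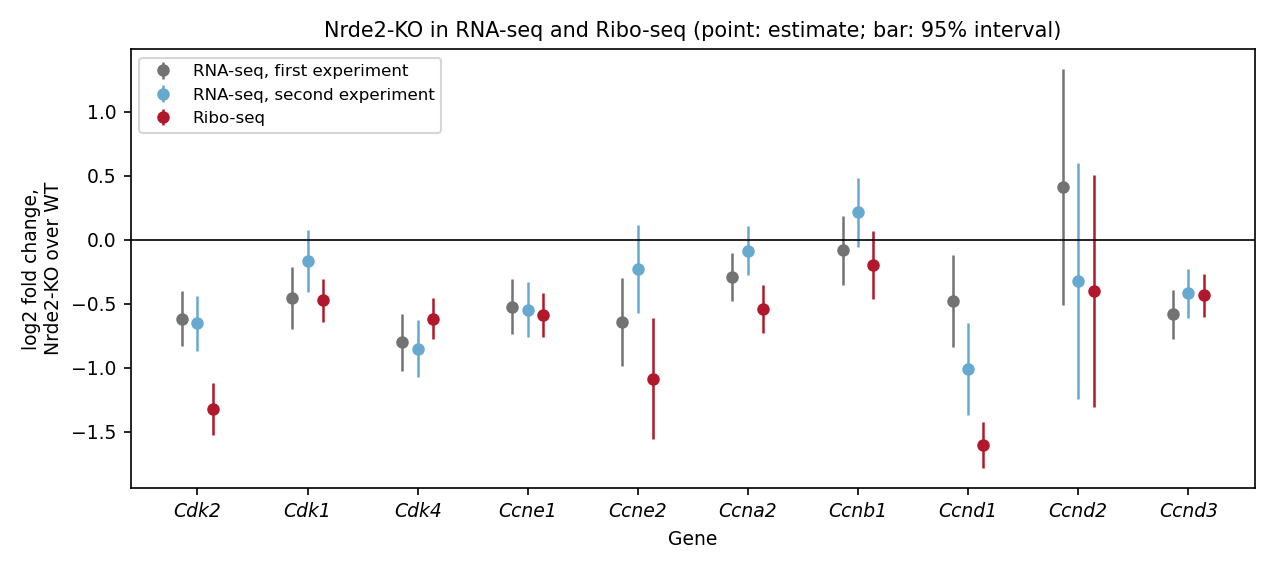
Log2 fold change of *Nrde2*-KO over WT (y axis) for each gene (x axis) in RNA-seq of the first (grey) and second (blue) experiment and in Ribo-seq (red), with 95% intervals. The Ribo-seq intervals of *Cdk2* (point at −1.32) and *Ccnd1* (point at −1.60) lie below both of their RNA-seq intervals. The Ribo-seq intervals of the other genes overlap at least 1 RNA-seq interval, though several of their points also lie below both RNA-seq points.

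*Cdk2* was lower in the presence of CHX too. In the fit of the libraries with CHX it read 58.6 and 60.3 normalized CPM in those labelled *Nrde2*-KO against 103 and 112 in WT (−0.86 ± 0.06, adjusted p = 2.2e-06), and 55.8 and 56.0 in *Ccdc174-dTAG* against 96.3 and 90.7 (−0.74 ± 0.06, adjusted p = 2.5e-05). The effect with CHX minus that without was −0.21 ± 0.12 for *Nrde2*-KO (adjusted p = 0.427, 95% interval −0.46 to 0.04) and 0.01 ± 0.12 for *Ccdc174-dTAG* (adjusted p = 0.990, 95% interval −0.24 to 0.26). This test passed for 0 of 10 members in either line by limma, where 0.456 and 0.244% of all genes passed, with 0 members at unadjusted p below 0.05 and 0 by edgeR or DESeq2.

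With CHX 6 of 10 members fell in the libraries labelled *Nrde2*-KO, where 17.4% of all genes fell and 10.8% rose. *Cdk4* read 216 and 221 against 406 and 454 (−0.97 ± 0.06), and *Ccne1* (−0.72), *Ccnd1* (−0.75), *Ccnd3* (−0.52) and *Ccna2* (−0.25) joined it. *Cdk1* was at 0.02 and *Ccnb1* at 0.04. The median was −0.39, beside −0.02 over all genes. Without WT replicate 2 or either KO replicate 4 members fell, the calls of *Ccna2* and *Ccnd1* being lost. In *Ccdc174-dTAG* with CHX 2 of 10 fell, *Cdk2* and *Cdk4* (246 and 228 against 322 and 300, −0.39 ± 0.06, adjusted p = 0.0020), where 6.17% of all genes fell and 2.86% rose. *Cdk2* again lay below each of the other 9 members, 0.54 below their median. Without WT replicate 1 or dTAG replicate 2 *Cdk2* was the 1 member called. With CHX the trophectoderm markers summed to 16.1 to 16.5 in the libraries labelled *Nrde2*-KO and 6.51 to 6.59 in WT, the primitive endoderm markers to 20.8 to 25.7 and 12.99 to 14.1, the neuroectoderm markers to 15.2 to 18.2 and 29.6 to 34.0 and the ES cell markers to 3564 to 3662 and 4129 to 4153. The feeder markers summed to 18.4 to 20.4 in the libraries labelled *Nrde2*-KO and 10.8 to 16.8 in WT. The mesoderm markers summed to 6.27 to 6.52 and 8.44 to 10.1. In *Ccdc174-dTAG* the neuroectoderm markers summed to 15.8 to 16.5 against 25.02 to 28.04 and the primitive endoderm markers to 11.5 to 12.2 against 9.81 to 10.2. The mesoderm markers of *Ccdc174-dTAG* summed to 6.95 to 7.16 against 8.01 to 8.42. The part of these was not tested. The share of calls that were higher was 38.4 and 31.7% in these comparisons, and 49.0 and 43.4% with CPM as deposited.

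**Figure D4:**
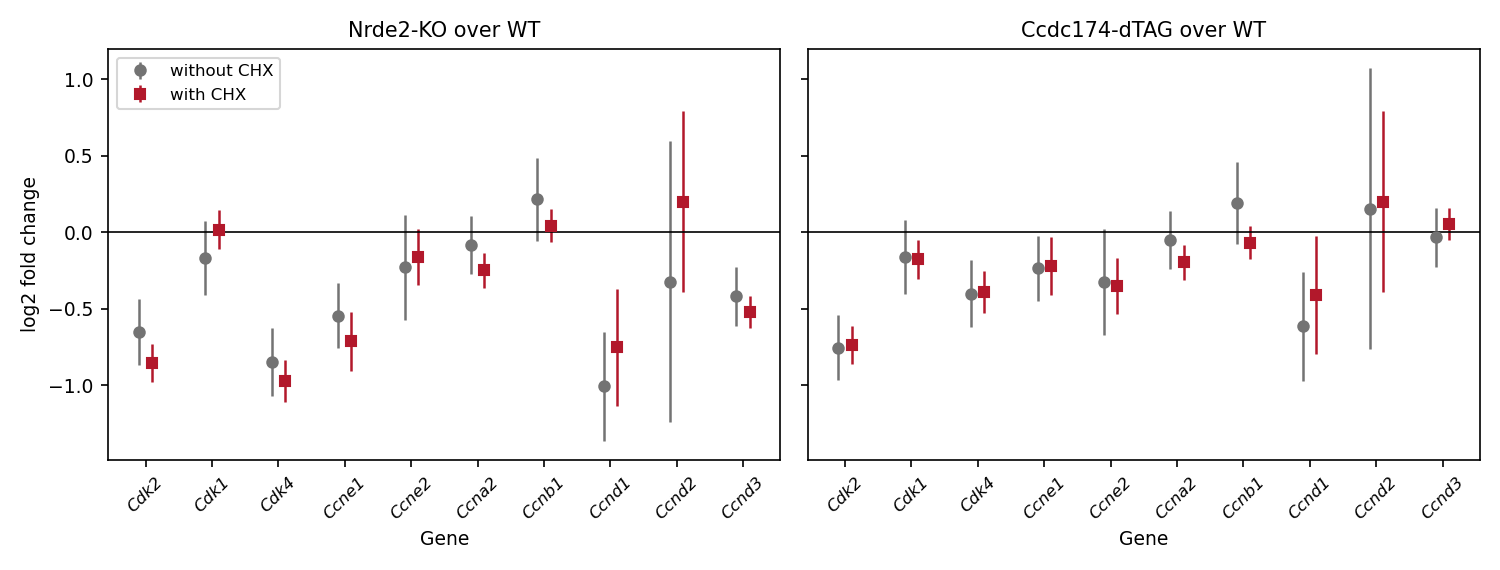
Log2 fold change against WT (y axis) of each gene (x axis) without CHX (grey circles) and with CHX in both groups (red squares), for *Nrde2*-KO (left) and *Ccdc174-dTAG* (right), with 95% intervals. The *Cdk2* intervals lie below 0 in all 4 cases and overlap between the conditions in each panel.

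CHX alone lowered most members in WT cells, and *Cdk2* among the least. In the fit of 16 libraries *Cdk2* read 117 and 130 normalized CPM without and 94.9 and 103 with CHX in the *Nrde2* line (−0.32 ± 0.08, adjusted p = 0.0039), and 110 and 117 against 88.2 and 82.4 in the *Ccdc174* line (−0.41 ± 0.08, adjusted p = 0.00058). *Cdk1*, the mitotic kinase, fell most, from 303 and 295 to 130 and 145 (−1.12 ± 0.08) and from 279 and 316 to 127 and 118 (−1.28 ± 0.08). Its cyclin *Ccnb1* changed by −0.72 and −0.98. In each line 8 of 10 members fell, where 22.9 and 24.6% of all genes fell and 24.8 and 25% rose. *Ccnd2* passed in neither, *Ccne2* missed in the *Nrde2* line (−0.41, adjusted p = 0.0192) and *Ccnd1* in the *Ccdc174* line (−0.52, adjusted p = 0.0374). The medians of the members were −0.59 and −0.59. This response depends on the scaling, since with CPM as deposited the median of all genes was 0.20 and 0.21 higher with CHX. *Cdk2* was then −0.10 (adjusted p = 0.275) and −0.17 (adjusted p = 0.0789), which is −0.30 and −0.38 relative to that median, and 76.2 and 75.5% of calls were higher instead of 52.0 and 50.4%. The *Cdk2* call in the *Nrde2* line was also lost without the WT replicate 2 that had no CHX (−0.25, adjusted p = 0.0475) or the WT replicate 1 with CHX (−0.26, adjusted p = 0.0485).

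Other cell cycle genes were read from a list of 57 that held inhibitors, further cyclins and kinases, activators and turnover factors, pocket proteins with E2F factors, and genes of S phase and mitosis. In *Nrde2*-KO 16 fell and 3 rose in the first experiment and 13 fell and 3 rose in the second, where 11.1 and 11.4% of all genes fell and 7.21 and 7.1% rose. The medians were −0.28 and −0.22, beside −0.01 and −0.00077 over all genes. The phosphatase gene *Cdc25b*, an activator of CDKs, fell from 27.9 and 26.8 to 14.7 and 14.2 normalized CPM (−0.91 ± 0.10) and by 1.09 on the log2 scale in the second experiment. The retinoblastoma gene *Rb1*, a brake on S phase entry, rose from 21.7 and 19.4 to 51.7 and 45.2 (1.23 ± 0.17) and by 1.29 in the second. *Ccng1*, a p53 target, rose by 0.89 and 0.77. In Ribo-seq 28 of 56 tested fell and 4 rose, where 14.2% of all genes fell and 11% rose, and 20 instead of 32 passed with CPM as deposited.

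*Tfdp1*, the dimerization partner of E2F factors, fell in *Ccdc174-dTAG* from 147 and 130 to 92.7 and 80.6 normalized CPM (−0.68 ± 0.12, adjusted p = 0.00073). *Cdc25b* fell there too (−0.65 ± 0.10). In all 4 of the 57 fell and 0 rose without CHX, and 5 fell and 0 rose with it, near the shares of all genes (4.53 and 6.17% fell, 1.04 and 2.86% rose). The medians of the list were −0.0068 and −0.02, beside 0.02 and 0.0087 over all genes. In *Nrde2*Δ*200* 2 of 57 fell, *Rbl1* (−0.43) and *Tyms* (−0.41), and 0 rose, no more than the 4.19 and 3.18% of all genes. In *Nrde2-D174R* 0 of 57 passed by limma, 7 had an unadjusted p below 0.05, and edgeR and DESeq2 called 0.

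*Mtrex*-KO moved 51 of the 57, 44 down and 7 up, where 28.2% of all genes fell and 27.7% rose. The median was −0.87, beside −0.02 over all genes. The 12 S phase genes and 9 mitosis genes of the list all fell. *Ccnb2*, another mitotic cyclin, fell from 161 and 190 to 36.7 and 50.4 normalized CPM (−2.02 ± 0.12), and *Cdc6*, which loads the replicative helicase, changed by −1.85. The CDK inhibitor *Cdkn1c* rose from 1.99 and 1.71 to 13.6 and 20.3 (3.01 ± 0.29) and *Rb1* from 18.8 and 15.5 to 118 and 112 (2.73 ± 0.17). With CHX the libraries labelled *Nrde2*-KO had 17 lower and 7 higher, where 17.4% of all genes fell and 10.8% rose, led upward by the inhibitor *Cdkn2b* (1.62) and by *Ccng1* (1.49).

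CHX in WT cells lowered 29 and 28 of the 57 and raised 4 in each line, where 22.9 and 24.6% of all genes fell and 24.8 and 25% rose. The inhibitor *Cdkn1a*, a p53 target, fell from 80.2 and 54.9 to 18.4 and 13.6 (−2.05 ± 0.17) and from 72.8 and 73.3 to 8.49 and 9.14 (−3.02 ± 0.17) normalized CPM. The Ribo-seq and RNA-seq effects of *Nrde2*-KO differed for 6 of 56, 5 lower in Ribo-seq and 1 higher, where 7.17% of all genes differed, and for 1 with CPM as deposited. The kinase gene *Cdk6*, like *Cdk4* a partner of D cyclins, was lower in Ribo-seq by 0.89 (adjusted p = 0.0037) and the helicase subunit *Mcm5* by 0.60 (adjusted p = 0.0037), while the proliferation antigen gene *Mki67* was higher by 0.64 (adjusted p = 0.0026).

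The genes whose RNA moved most like *Cdk2* were named from the 20 libraries without CHX, each set against the WT mean of its own experiment, among 13218 others whose mean reached 1 CPM. They were *Topbp1* (Pearson r = 0.97), *Nolc1* (0.96), *Pfas* (0.95), *Gm5131* (0.95) and *Mov10* (0.95). These values describe 20 libraries that share genotypes and WT pairs. Of the members, *Cdk4* and *Ccnd1* were most like *Cdk2* (both 0.83), *Ccne2*, *Ccnd3*, *Ccne1*, *Cdk1* and *Ccna2* lay between 0.59 and 0.71, *Ccnb1* was at 0.36 and *Ccnd2* at −0.51. Over all 28 RNA-seq libraries *Topbp1* dropped to 0.70, while the other 4 genes lay between 0.89 and 0.94.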

How the data were processed

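RNA-seq was rRNA-depleted, stranded and single-end. Per the methods and the submitters' processing notes, the authors mapped reads with STAR 2.7.3a to mm10, counted unique reads of the correct strand per GENCODE M23 gene with featureCounts, and deposited CPM. Ribo-seq reads were trimmed, collapsed and treated alike. All deposited CPM values were whole multiples of 1 read (100% within 0.1), which recovered the reads. Symbols, exon lengths and introns came from GENCODE M21 (GRCm38), which held 55154 of 55335 identifiers, and sequence from the RefSeq copy of that assembly. CPM were divided by median-of-ratios factors, 0.25 was added, and log2 values were tested with limma 3.58.1 (R 4.3.3; trend, empirical Bayes) where a gene's mean reached 0.5 CPM. All fold changes are on this scale. Separate fits held the 20 libraries without CHX (14889 genes), 8 with CHX (15476), 4 of Ribo-seq (13857), 16 of the CHX experiments (15133) and 8 for Ribo-seq against RNA-seq (12788, the mean being required in each assay). "Fell", "rose" and "passed" mean a Benjamini-Hochberg adjusted p below 0.01 over all genes of the fit. Scripts were tested on simulated data. edgeR 4.0.16 and DESeq2 1.42.0 ran on the recovered reads as alternatives.

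The members, the list of 57 genes and the tests were chosen with earlier results of these data known. The members, the targeted genes, the genes most like *Cdk2*, and the largest changes of the 57-gene list were named. The labels do not say whether the 2 libraries of a group are separate cultures, so p-values measure the spread between libraries. For each gene, all groups of a fit share an estimate of the spread. The SE and p-value of a comparison therefore do not rest on its own libraries alone, also where a pair lies far apart, as in *Mtrex*-KO. No 2 libraries of a group held the same reads. In all 7 members overlap a gene on the opposite strand, which stranded counting separates. Reads shared with near-identical copies are left out by unique mapping. The 16 BCLIP samples and the introns of 2 chromosomes were not used here. With 1 library left out, the lone library of a group was assumed to vary like the others.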

Additional observations from a re-analysis of the deposited data

Results flagged for a closer look

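The *Nrde2*-KO change differed between the RNA-seq and the Ribo-seq for 2 of the 10 genes, by the interaction term of 1 fit over both assays. The Ribo-seq change was lower than the RNA-seq change by 0.69 for *Cdk2* (log2 difference −0.69) and by 1.11 for *Ccnd1* (−1.11). The *Ccnd1* difference was −0.57 when the RNA-seq of the second experiment was used. No gene of the 10 was singled out for a difference between the experiments or between libraries with and without CHX. Groups of 2 libraries are too small to look for a single library that stands apart.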

How the results depend on the processing

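Of 170 *Cdk2* values under settings other than leaving out a library, 163 kept their direction and side of the threshold and 0 changed sign. Of 100 with 1 library left out 84 kept both, 7 lost the call and 9, all of differences near 0, changed sign.

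With CPM as deposited, *Cdk2* was −0.54 in *Nrde2*Δ*200*, −0.10 and −0.17 for CHX in the *Nrde2* and *Ccdc174* WT lines, −0.63 for Ribo-seq minus RNA-seq and −0.37 for *Nrde2*-KO minus D174R, each past the threshold no longer, and −0.64 for the *Mtrex*-KO minus the *Nrde2*-KO effect, now past it. The members called were then 3 and 3 in the *Nrde2*-KO experiments, 0 in *Nrde2*Δ*200*, 4 in Ribo-seq, 1 for Ribo-seq minus RNA-seq, 0 for *Nrde2*-KO minus *Nrde2*Δ*200* and 1 for *Nrde2*-KO minus D174R, and *Ccnb1* in *Nrde2*Δ*200* turned to 0.0053. Without a filter *Cdk2* was −0.32 for CHX in the *Nrde2* line (adjusted p = 0.0129), and 1 member was called in *Nrde2*Δ*200*, in *Ccdc174-dTAG* with CHX and for *Nrde2*-KO minus *Nrde2*Δ*200*. With only the compared groups 4 were called in *Nrde2*Δ*200* and 4 for the *Mtrex*-KO minus the *Nrde2*-KO effect. DESeq2 called 3 in *Ccdc174-dTAG* and 1 for its difference from *Nrde2*-KO. With the RNA-seq of the second experiment 1 member differed between the assays. The causes were not tested. Of the 57 cell cycle genes, 19 passed in *Nrde2*-KO, and 12 without a filter, 10 with CPM as deposited and 33 with only the compared groups. In the second experiment 16 passed, and 10 and 8 under the first 2 of these. In *Nrde2*Δ*200* 2 passed, and 0 with CPM as deposited, 4 with the replicate block, 7 by DESeq2 and 15 with only the compared groups. CPM as deposited gave 2 instead of 4 in *Ccdc174-dTAG*, 20 instead of 32 in Ribo-seq and 1 instead of 6 for Ribo-seq minus RNA-seq, and without a filter 0 instead of 5 in *Ccdc174-dTAG* with CHX. DESeq2 called 4 instead of 0 for the *Nrde2*-KO effect with CHX minus without. For *Nrde2*-KO minus *Nrde2*Δ*200* 6 passed, and 3 with CPM as deposited, 10 by DESeq2 and 19 with only the compared groups, and for *Nrde2*-KO minus D174R 16, and 7 and 30 under the first and last of these. For *Ccdc174-dTAG* minus *Nrde2*-KO 1 passed, and 2 at a mean of at least 1 CPM, 0 with CPM as deposited, 3 with the replicate block, 2 with only the compared groups and 5 by DESeq2.

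Leaving out 1 library at a time gave *Cdk2* ranges of −0.40 to −0.25 for CHX in the *Nrde2* line, −0.55 to −0.47 for *Nrde2*-KO minus D174R and −0.63 to −0.53 in *Nrde2*Δ*200*. Ranges that crossed 0 were, for *Cdk2*, −0.038 to 0.058 for the *Ccdc174-dTAG* effect with CHX minus without, −0.14 to 0.073 between the *Nrde2*-KO experiments and −0.080 to 0.0085 for *Nrde2*-KO minus *Nrde2*Δ*200*. For other members they were −0.11 to 0.026 (*Ccnb1*) and −0.38 to 0.076 (*Ccnd1*) in *Nrde2*Δ*200*, −0.24 to 0.54 (*Ccnd2*) and −0.13 to 0.064 (*Ccnd3*) in *Ccdc174-dTAG*, −0.21 to 0.61 (*Ccnd2*) with CHX, −0.14 to 0.66 (*Ccnd2*) for CHX in the *Ccdc174* line, −0.36 to 0.17 (*Ccnd2*) in D174R and −0.068 to 0.090 (*Cdk1*) in *Nrde2*-KO with CHX. The members called ranged from 3 to 4 and 3 to 5 in the *Nrde2*-KO experiments, 0 to 2 in *Nrde2*Δ*200*, 1 to 2 in *Ccdc174-dTAG* with CHX, 0 to 1 and 2 to 3 for *Nrde2*-KO minus *Nrde2*Δ*200* and minus D174R, and 4 to 7 for *Mtrex*-KO minus *Nrde2*-KO.

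The labels share replicate numbers but do not tie them to a batch. Deviations of same-numbered libraries correlated between −0.03 and 0.42. Blocked on the replicate number, 3 members instead of 2 were called in *Nrde2*Δ*200* and 5 instead of 6 in *Nrde2*-KO with CHX, and *Cdk2* kept every call. In Ribo-seq *Ccnd2* and *Ccne2* rest on few reads, so depth limits both.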

Other observations

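*Nrde2* itself responded to CHX. In WT cells its level rose by 2.13 ± 0.07 on the log2 scale in the *Nrde2* line and by 1.94 ± 0.07 in the *Ccdc174* line. *Ccdc174* rose by 0.87 ± 0.08 and 0.76 ± 0.08. The *Nrde2*-KO effect on *Nrde2* in Ribo-seq was −2.16 ± 0.22, against −1.05 ± 0.09 in RNA-seq.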
